A study of Rattus norvegicus with 9 samples.

Results

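The activity-regulated immediate early genes are genes that neurons switch on within minutes of synaptic input, without first making new protein. The 9 genes described here, Fos, Junb, Egr1, Egr2, Nr4a1, Npas4, Klf10, Arc and Dusp1, were chosen by identifier as members of this class, and all 9 are among the 29516 Ensembl gene identifiers counted. They were measured by SOLiD sequencing of ribosomal-depleted RNA of the cerebral cortex in male BN/SsNOlaHSD rats, an inbred strain, fed ad libitum and aged 6, 12 or 28 months. Each library was made from the pooled RNA of 2 rats, so that differences between single animals were averaged before sequencing, and 9 count files, 3 per age, were deposited. The question of the study is how the cortical transcriptome changes with age.

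In textbook accounts, calcium entry and the MAP kinase pathway activate transcription factors that are already present in the neuron, CREB bound to the cyclic AMP response element (CRE) and serum response factor (SRF) bound to the CArG box. Their first targets are other transcription factors (the AP-1 subunits Fos and Junb, the zinc finger proteins Egr1, Egr2 and Klf10, the nuclear receptor Nr4a1 and the neuron-specific Npas4) and effectors such as Arc, which regulates AMPA receptor trafficking at synapses, and Dusp1, a phosphatase that switches MAP kinases off. The transcripts are short-lived, and in the cortex they are widely used as markers of recent neuronal activity.

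Sample 2 of the 6-month group and sample 3 of the 12-month group carried identical counts, so the 9 files hold 8 independent libraries. The labels do not settle the age of this library, called the shared library here, and it was therefore left out of the comparisons between ages, which rest on 2 libraries at 6 months, 2 at 12 months and 3 at 28 months. Results with it are given beside them. The independent libraries had from 6513376 to 9196951 reads counted on genes, of which a single identifier took from 44.0 to 52.4%. The 5 neuronal markers whose identifier could be matched were present in every library and summed to between 986 and 1272 normalized counts. The shared library also stood apart in genes outside this class. It had 20.5 normalized counts of Tph1, an enzyme of serotonin synthesis, against at most 1.10 in any other library. Its 4 blood and plasma transcripts summed to 77.8, against 20.5 to 56.2 elsewhere. Of this sum, 64.8 was haemoglobin beta-2 (LOC689064), against at most 50.5 in any other library. The plasma transcripts Alb (7.12) and Gc (2.23) lay near their levels in 12 months sample 2 (7.01 and 1.93). Apob (3.63) lay below its level in that library (5.78). Normalized counts are CPM values, read counts relative to the library total after TMM scaling, and they are compared here between libraries for the same gene, not between genes, since gene length was not used. The sample numbers only name the libraries within an age. Levels are listed in their order, samples 1 and 3 at 6 months, 1 and 2 at 12 months and 1, 2 and 3 at 28 months. Age means and folds leave out the shared library.

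Promoter sequences are shown because CRE and CArG elements are the classical sites of induction for such genes. RefSeq promoter sequences (build GRCr8) were matched by symbol for 6 of the 9 genes, and none was found for Arc, Fos and Klf10. The 250 bases before each start site were searched on both strands for the full CRE (TGACGTCA) and the CRE core (TGACG, which the full CRE also contains). The CArG box and the binding site of EGR proteins (EGR site) were searched in the same way. For 4 genes the stretch that holds the matches is printed 5′ to 3′ on the strand of the gene, with the matches in capitals. They lie at chr18:26736928-26737031 (plus strand) for Egr1, chr20:21054488-21054539 (minus strand) for Egr2, chr10:17184666-17184751 (plus strand) for Dusp1 and chr19:40080956-40080990 (plus strand) for Junb.
Egr1: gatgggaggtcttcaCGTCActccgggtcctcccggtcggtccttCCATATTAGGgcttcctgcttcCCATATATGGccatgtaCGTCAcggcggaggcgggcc
Egr2: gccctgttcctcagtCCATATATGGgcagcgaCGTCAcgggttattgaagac
Dusp1: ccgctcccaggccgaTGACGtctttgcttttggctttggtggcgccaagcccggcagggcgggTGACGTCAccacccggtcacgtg
Junb: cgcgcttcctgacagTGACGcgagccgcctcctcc

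Egr1 and Egr2 share the same CArG sequence, CCATATATGG, at the same distance from the start site, bases -83 to -74, and each has a CRE core on the opposite strand at bases -66 to -62. Egr1 has a second CArG box at bases -105 to -96. A CArG box was found in 2 of the 6 promoters of the class and in 1.5% of all 33469 promoters in the same window. The EGR site was found in 0 of the 6, against 0.478% of all promoters, and Npas4 had no match to any motif searched. Dusp1 alone had the full CRE, at bases -124 to -117, which 1.59% of all promoters hold. The CRE core was found in 5 of the 6 (Egr1, Egr2, Dusp1, Junb and Nr4a1), against 18.2% of all promoters, and Nr4a1 had 4 copies of it between bases -246 and -49. Such matches describe the letters in these windows and do not show that a factor was bound.

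Libraries of a single age differed widely in these genes, and most of the genes were high and low in the same libraries. The shared library and 28 months sample 3 were each among the 3 lowest of the 8 libraries for 9 of the 9 genes. Of the 10968 genes averaging 20 reads or more, 38.7% placed the shared library and 34.8% placed 28 months sample 3 among the 3 lowest. At the other end, 6 months sample 1 was among the 3 highest for 9 genes and 12 months sample 1 for 8. Of the 28-month libraries, sample 3 was the lowest for all 9 genes, against 26.8% of the 10968 genes. Within the 12-month libraries, sample 1 exceeded sample 2 for 9 of 9 genes, against 49.5% of genes, and within the 6-month libraries sample 1 exceeded sample 3 for 8 of 9, against 49.6%. For 7 of the 9 genes the largest ratio between libraries of the same age exceeded the ratio between the highest and lowest age mean, and the exceptions were Arc and Egr1. This held for 76.3% of 10962 genes, so the count of 7 is near the background.

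**Figure D1:**
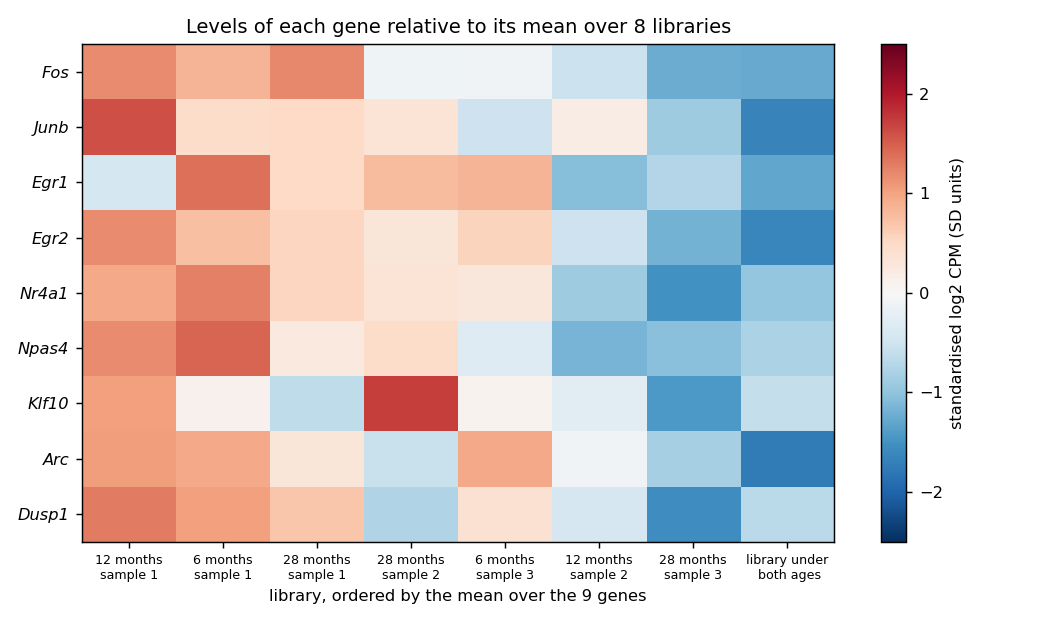
Level of each immediate early gene in each of the 8 independent libraries, as log2 CPM standardised to the mean and SD of that gene over the 8 libraries. Libraries run from the highest mean over the 9 genes (12 months sample 1, 1.01 SD) to the lowest (the shared library, -1.18 SD), and each age has libraries on both sides of at least 1 library of another age.

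The AP-1 subunit genes come first. Fos (ENSRNOG00000008015), whose protein pairs with Jun proteins, had 12.9 and 7.67 CPM at 6 months, 15.4 and 6.05 at 12 months, 15.4, 7.60 and 4.10 at 28 months, and 4.05 in the shared library. Each age thus had a high and a low library, and the ages overlapped throughout. The lowest 28-month library had 27 reads (exact Poisson 95% interval 17.8 to 39.3) and the highest 125 (104 to 149), so counting error alone does not span the 3.77-fold ratio between them; these intervals cover counting error only. Junb (ENSRNOG00000042838), the Fos partner, had 5.23 and 2.86 at 6 months, 10.4 and 4.40 at 12 months, 5.31, 4.84 and 2.28 at 28 months, and 1.40 in the shared library, where 10 reads were counted. Junb was highest in 12 months sample 1, where Fos ranked 2 of the 8, while 12 months sample 2 lay inside the range of the other ages.

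Among the zinc finger genes, Egr1 (ENSRNOG00000019422; also known as zif-268), a marker of plasticity, had 91.6 and 77.8 CPM at 6 months, 52.6 and 43.5 at 12 months, 70.1, 76.4 and 48.1 at 28 months, and 40.3 in the shared library. The 6-month libraries were the highest of all, and 12 months sample 1, high for the other genes, ranked 5 of the 8 for Egr1. Egr2 (ENSRNOG00000000640), its relative, had 12.7 and 11.7 at 6 months, 15.4 and 7.29 at 12 months, 11.6, 10.5 and 5.46 at 28 months, and 4.47 in the shared library. Of the 12-month libraries of Egr2, sample 1 lay above all other libraries and sample 2 below both 6-month libraries. Klf10 (ENSRNOG00000006118), a Krüppel-like factor first described as inducible by TGF-beta, varied least across the 8 libraries. It had 10.5 and 10.4 at 6 months, 12.4 and 9.76 at 12 months, 9.14, 14.1 and 7.89 at 28 months, and 9.21 in the shared library, and 28 months sample 2 was its highest library.

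Nr4a1 (ENSRNOG00000007607), an orphan nuclear receptor, had 17.8 and 10.2 CPM at 6 months, 14.97 and 5.23 at 12 months, 11.9, 10.6 and 3.64 at 28 months, and 5.03 in the shared library. The lowest library of 28 months had 24 reads and the highest 96. Npas4 (ENSRNOG00000020009), which in neurons responds selectively to calcium influx, was counted with few reads. It had 6.10 and 1.60 normalized counts at 6 months, 4.99 and 0.825 at 12 months, 2.47, 2.90 and 0.910 at 28 months, and 1.12 in the shared library. The 6.05-fold ratio within 12 months was that of 35 reads (exact Poisson 95% interval 24.4 to 48.7) to 6 (2.20 to 13.1). Nr4a1 and Npas4 thus split each age into high and low libraries in the same way.

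Of the effectors, Arc (ENSRNOG00000043465) had 58.8 and 59.1 CPM at 6 months, 61.7 and 35.8 at 12 months, 43.1, 28.3 and 24.7 at 28 months, and 15.9 in the shared library. The 28-month libraries of Arc all lay below both 6-month libraries, and 12 months covered both levels. Dusp1 (ENSRNOG00000003977) had 65.6 and 45.0 at 6 months, 77.6 and 28.1 at 12 months, 54.5, 23.2 and 14.4 at 28 months, and 24.3 in the shared library. The highest 28-month library of Dusp1 lay above the lower library of each younger age, and the ratio within 28 months was 3.78.

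**Figure D2:**
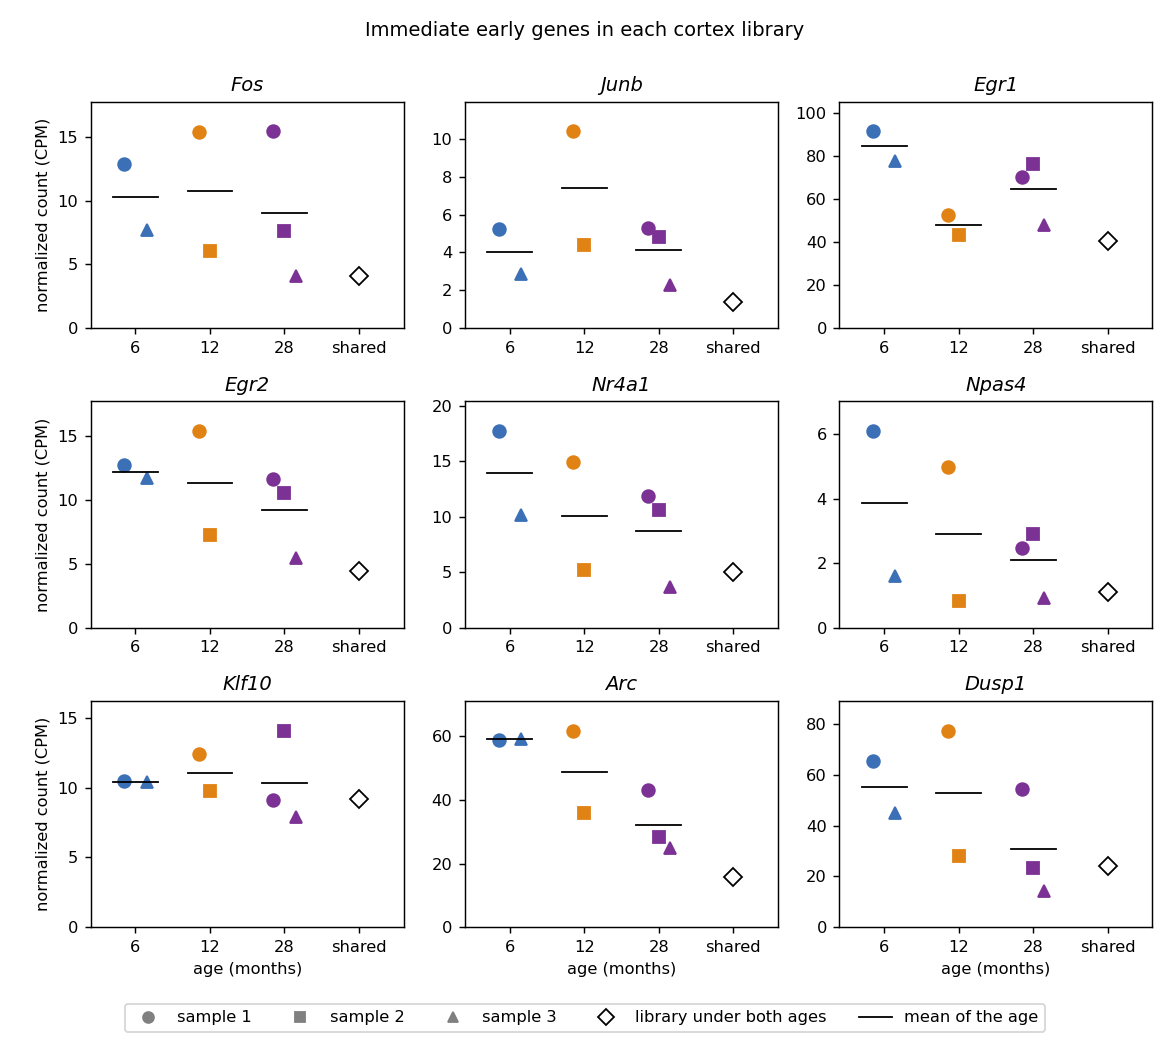
Normalized counts (CPM, vertical axis from 0) of the 9 genes in the libraries of each age (months, horizontal axis), with a horizontal line at the mean of each age over its single-age libraries and an open diamond for the shared library. In Fos, Nr4a1, Npas4 and Dusp1 the libraries of an age are spread widely, whereas Egr1 at 12 months and Arc at 28 months lie below both 6-month libraries.

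The spread between libraries of an age was set against that of the other genes. Over the 7 single-age libraries, the SD of log2 CPM within ages was 1.23 for Npas4, 0.89 for Nr4a1, 0.88 for Dusp1, 0.86 for Fos, 0.70 for Junb and 0.56 for Egr2, against a median of 0.23 over the 11012 genes that averaged 20 reads or more. These 6 genes lay between the 94.6th and the 99.6th percentile of that distribution. The other 3 were nearer the middle, with Arc at 0.40 (percentile 84.6), Klf10 at 0.33 (percentile 74.9) and Egr1 at 0.29 (percentile 65.5). Low counts add to this measure. The biological coefficient of variation that edgeR estimates beyond counting error gave nearly the same placing, 0.49 for Npas4, 0.36 for Dusp1, 0.35 for Fos and Nr4a1 and 0.17 for Egr1, against a median of 0.16. Hprt1, a housekeeping gene and 1 of the qPCR reference genes of the study, had a within-age SD of 0.22 (percentile 45.4).

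**Figure D3:**
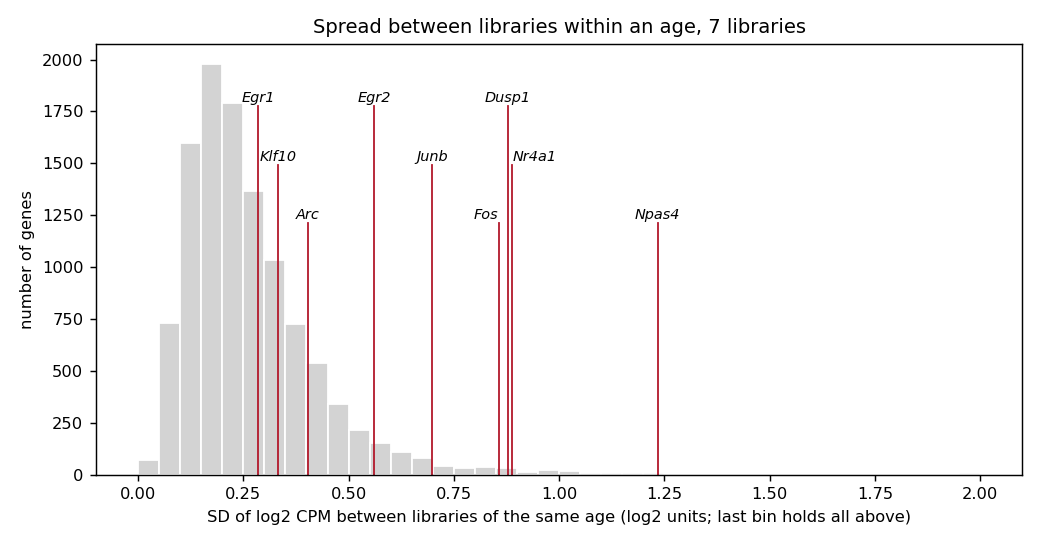
Number of genes (vertical axis) by the SD of log2 CPM between libraries of the same age (horizontal axis, log2 units) for the 11012 genes averaging 20 reads or more over 7 libraries, with a vertical line for each immediate early gene. Npas4 at 1.23 lies farthest to the right and Egr1 at 0.29 closest to the median of 0.23.

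The likeness of the 9 profiles was described by correlation of log2 CPM across the 8 libraries, which differ in age and depth, so that no test is attached. Over the 36 pairs of members the median Pearson r was 0.74, with a range of 0.33 to 0.94, and 14 of them exceeded 0.8, compared with 1.42% of the pairs among all 10968 genes. The highest was between Nr4a1 and Npas4 (r = 0.94) and the lowest between Arc and Klf10 (r = 0.33). When each member was set against the mean standardised profile of the other 8, Egr2 (r = 0.97) and Nr4a1 (r = 0.97) were each closer to it than any of 10959 non-member genes, Fos (r = 0.92) took rank 9 and Npas4 (r = 0.88) rank 43. Dusp1 (r = 0.83, rank 108), Arc (r = 0.82, rank 119) and Junb (r = 0.81, rank 147) followed. Of the 10959 non-member genes, 183 had an r of at least 0.8 with the mean profile of all 9 members and 13 at least 0.9, up to 0.94. Egr1 (r = 0.66, rank 651) and Klf10 (r = 0.56, rank 1270) were the least alike. With the age means removed, over the 7 single-age libraries, r was 0.89 for Egr1, 0.98 for Junb and 0.56 for Klf10 and lay between 0.80 and 0.997 for the others. Where an age has 2 libraries, removing its mean leaves equal and opposite values. This r was not ranked against other genes, so its height cannot be judged. Of the non-members that have a name, those closest to the mean profile were Kifap3 (r = 0.75, rank 337), Actr3 (0.71), SNORA9 (0.71), U4 (0.69) and SNORA29 (0.68). Most identifiers carry no name in the sources used here, and the non-members at higher ranks are therefore not named.

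Other values of the libraries can be set beside this order. The summed level of the 5 neuronal markers was lowest in 12 months sample 2 (986) and the shared library (1007), whose mean over the class was -0.53 and -1.18 SD. It was 1165 in 28 months sample 3, whose mean was -1.16 SD, and between 1144 and 1272 in the remaining libraries. Gfap, the astrocyte marker, was high in the shared library and both 12-month libraries (145 to 155) and between 52.4 and 89.1 in the others. The most deeply counted library, 6 months sample 1 (9196951 reads), had a class mean of 0.91 SD. The class mean was 1.01 SD in 12 months sample 1 (7215142 reads) and -0.53 SD in 12 months sample 2 (7310231 reads). Hspa1a, a heat shock gene that is also rapidly inducible, had its highest level in 6 months sample 3 (16.7 normalized counts, against 1.38 to 4.57 elsewhere), a library that stood in the middle for the class. The part of cell composition, depth or handling in the order was not tested. In such bulk RNA, fewer cells of a type and less RNA per cell cannot be told apart.

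Between 6 and 12 months, Egr1 showed the clearest difference, with a mean level 1.76-fold lower at 12 months, and for the other 8 genes the 95% interval of the difference included 0. Its log2FC (older over younger) was -0.83 (standard error 0.17, 95% interval -1.20 to -0.45), with an FDR of 0.0595 by edgeR's quasi-likelihood test, just above the threshold of 0.05. The libraries of Egr1 did not overlap between the ages, as did those of 22.2% of all genes in this direction when 2 libraries are compared with 2. No gene of the class was DE by this test (0 of 9), against 1.2% of 15966 genes, and 1 of 9 had an unadjusted p under 0.05, against 13.6%. The edgeR exact test, which the study used, called 1 of the 9, Egr1, with an FDR of 0.0140, and 462 of all 15966 genes. DESeq2's Wald test also called 1 of the 9, Egr1, with an FDR of 0.0176, and 240 of all 15966 genes. Over its alternatives the FDR of Egr1 ran from 2.22e-05 to 1.0. With the shared library kept under both ages as labelled, the log2FC was -0.62 (FDR 0.997), and it was -0.55 (FDR 0.684) with that library at 6 months only and -0.91 (FDR 0.0635) with it at 12 months only. Of the remaining genes, Junb had a log2FC of 0.85 (95% interval -0.13 to 1.84, FDR 0.446), and the other 7 lay between -0.48 and 0.08, with FDR values of 0.643 or more. Without 12 months sample 1, the log2FC of Nr4a1 was -1.44, that of Dusp1 -0.997 and that of Junb 0.0989. Without 12 months sample 2, that of Junb was 1.35. These edgeR quasi-likelihood fits keep a single 12-month library and assume that it varies like the others. In the same comparison Gfap (log2FC 0.88, FDR 0.0329) and Cd74, a gene of antigen-presenting cells (log2FC 2.65, FDR 0.000601), were higher at 12 months by the quasi-likelihood test. The part of cell composition in the value of Egr1 was not tested.

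Between 6 and 28 months, 8 of the 9 log2FC values were below 0, with a median of -0.40, against a median of -0.01 and 51.1% below 0 over all genes. Most of the 9 genes were high and low in the same libraries, so these values are not separate observations. Arc had the lowest, -0.88 (standard error 0.22, 95% interval -1.36 to -0.39, FDR 0.315 by the quasi-likelihood test), a 1.84-fold ratio of the age means. The libraries of Arc, Egr1 and Egr2 lay lower at 28 months without overlap, 3 of 9 genes, against 11% of all genes, and none of the 9 lay higher, against 10.9%. None of the 9 was DE (0 of 9, against 0.206% of 16042 genes, or 0.199% in this direction), and 1, Arc, had an unadjusted p under 0.05, against 6.45% of genes, or 3.3% in this direction. The exact test and DESeq2 called 0 of the 9 as well, with FDR values for Arc of 0.0689 and 0.0825. Of all 16042 genes they called 138 and 72. Dusp1 (log2FC -0.84, 95% interval -1.73 to 0.05), Npas4 (-0.86, -2.08 to 0.35) and Nr4a1 (-0.67, -1.51 to 0.18) had values of similar size but intervals that included 0. Whether a gene was called depended on the libraries kept and on the filter. Without a filter on low counts, Arc was DE (log2FC -0.88, FDR 0.0150 by the quasi-likelihood test), as were 199 of all 20854 genes. Without 28 months sample 1, Arc (log2FC -1.15, FDR 0.0125) and Dusp1 (-1.55, FDR 0.0161) were DE by the quasi-likelihood test, as were 137 of all 15889 genes. With the shared library as a 6-month library, which its label also allows, the log2FC of Arc was -0.48 (FDR 1.0) and that of Dusp1 -0.55 (FDR 1.0). The FDR of Arc over its alternatives ran from 0.0125 to 1.0. Fos, Junb and Klf10 had values of -0.17, 0.04 and -0.01, with the FDR at 0.973 or more. Without 28 months sample 3 these were 0.17, 0.32 and 0.15, and the values of the other members stayed below 0.

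Between 12 and 28 months, which shares the 28-month libraries with the comparison before it, 8 of 9 values were below 0, with a median of -0.28, against a median of 0.01 and 49.2% below 0 over all genes. Egr1 was the exception, at 0.44 (95% interval -0.00 to 0.89, FDR 0.655). The 9 values are again not separate observations. The lowest were Junb at -0.81 (95% interval -1.66 to 0.04, FDR 0.677), Dusp1 at -0.77 (FDR 0.730) and Arc at -0.59 (95% interval -1.15 to -0.04, FDR 0.620). None of the 9 was DE by the quasi-likelihood test, against 0.12% of 15840 genes (0.0442% lower at 28 months), none by the exact test and none by DESeq2 (0 of 9 in each), and 1 of 9, Arc, had an unadjusted p under 0.05, against 7.68% (3.66% lower at 28 months). No gene of the class had libraries that did not overlap (0 of 9), against 13.2% of all genes lower and 11.4% higher at 28 months. Without 28 months sample 1, Dusp1 was DE (log2FC -1.47, FDR 0.0450). Without 12 months sample 1, the library highest for the class at that age, the log2FC of Fos, Egr2, Nr4a1, Npas4, Klf10 and Dusp1 turned positive, to between 0.10 and 1.36, those of Junb and Arc were -0.0608 and -0.14, and none of the 9 was DE. With the shared library as a 12-month library, Arc was at -0.23 and Dusp1 at -0.48 (both with an FDR of 0.998).

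**Figure D4:**
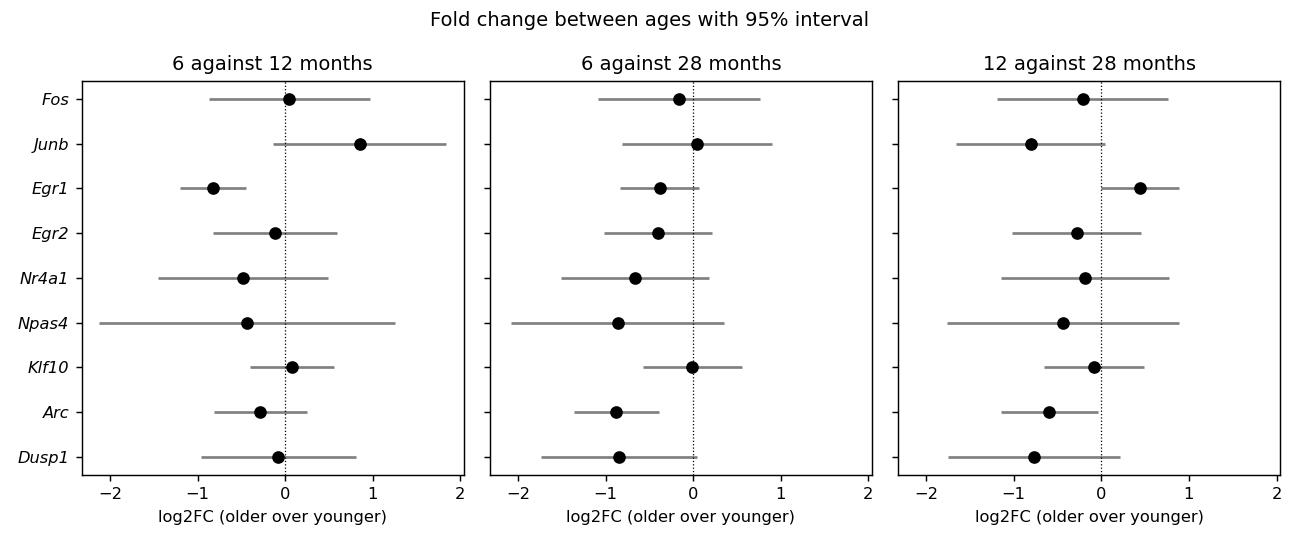
Log2FC (horizontal axis, older over younger) of the 9 genes in each pair of ages, with horizontal bars for the 95% interval of the quasi-likelihood fit, not adjusted for the number of genes. The intervals of Egr1 between 6 and 12 months and of Arc between 6 and 28 and between 12 and 28 months exclude 0, and those of Npas4 are the widest.

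A test of any difference among the ages over the 7 single-age libraries gave the same picture. By edgeR's quasi-likelihood F test 0 of the 9 genes were DE, against 0.694% of 16283 genes, and 0 by DESeq2's likelihood ratio test. An unadjusted p under 0.05 was reached by 2 of 9 (Egr1, FDR 0.308, and Arc, FDR 0.334), against 9.69% of all genes. The FDR of the other 7 lay between 0.637 and 0.984.

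Of the wider group of activity-regulated genes listed for comparison, only Egr3, Scg2 and Nptxr could be matched to an identifier, and 0 of these 3 were DE in any pair of ages. Egr3 (ENSRNOG00000017828), a zinc finger gene related to Egr1, had 10.02 and 12.5 CPM at 6 months, 6.27 and 4.40 at 12 months, 8.52, 9.68 and 8.04 at 28 months, and 3.91 in the shared library. The levels of Egr3 did not overlap between any pair of ages, with the lowest at 12 months, when the shared library, which lay below all others, was left out. In the same direction, 22.2% of all genes did not overlap between 6 and 12 months. The share was 11% between 6 and 28 months and 11.4% between 12 and 28 months. Between 6 and 28 months the log2FC of Egr3 was -0.36 (95% interval -0.83 to 0.11, FDR 0.841 by the quasi-likelihood test). The log2FC of Egr3 was -1.08 between 6 and 12 months (95% interval -1.66 to -0.50, FDR 0.107) and 0.72 between 12 and 28 months (0.17 to 1.27, FDR 0.516). Nptxr, a receptor for neuronal pentraxins, was at -0.46 (FDR 0.278) and 0.51 (FDR 0.653) in these comparisons, which share the 12-month libraries. Scg2, a secretogranin of dense-core vesicles, was at -0.13 (FDR 0.815) and -0.02 (FDR 0.993). Unlike the high-spread members, Egr3 had a within-age SD of 0.23 (percentile 49.5). Its r with the mean profile of the class was 0.53, that of Nptxr was 0.56 and that of Scg2 was -0.23. Arc, Klf10, Egr3, Nptxr and Gc are listed in the study for transcript-level differences with age in the same libraries. Scg2, Gfap, Cd74, Tph1, Hspa1a, Alb, Apob and LOC689064 stand in its other lists of age differences. Of these, Gfap, Tph1, Hspa1a and Alb also stand in its transcript list. The values of all these genes here are therefore no independent evidence.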

How the data were processed

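The authors converted the colour-space reads, aligned them with Bowtie against the Ensembl rat genome (rn4 in the submitters' processing notes) and, after sorting in SAMtools, used HTSeq to count reads on genes. What they deposited is raw counts, without normalization. Program versions and the strand setting are not given in the sources used here, and reads of overlapping or antisense genes cannot be told apart. The 5 closing lines of each file were left out. Reads on no gene were from 47.5 to 60.0% of the reads counted on a gene, on no gene or as ambiguous. The members and the lists were chosen with earlier results of these data known. The genes named in the text are the 9 members, the listed activity-regulated, reference, stress and marker genes whose identifier the study's tables give, and the 5 named genes closest to the mean profile. The values of 1 listed marker gene are not reported here.

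Genes reaching 5 reads in 1 or more of the libraries compared, among them all 9 members, were tested with edgeR 4.0.16 (R 4.3.3, TMM, quasi-likelihood test, Benjamini-Hochberg FDR over all genes, threshold 0.05), with a separate fit for each pair of ages and no shared library in it. The test of any age used the 7 single-age libraries. The standard error is the absolute log2FC over the square root of F. CPM used TMM over the 8 independent libraries, and log2 CPM a prior count of 1. Alternatives were the exact test with tagwise dispersion, DESeq2 1.42.0, RLE factors, other filters, the shared library under either or both ages, 1 dispersion over 7 libraries and each library left out. The fits were also run on simulated data, whose spread followed the trend over all genes. Over the 7 single-age libraries each member's biological coefficient of variation lay above that trend (Npas4 0.49 against 0.23, Dusp1 0.36 against 0.16). The simulation therefore does not show how the fits behave for these genes. Each library is a pool of 2 rats, so p-values measure the spread between pools, which may in part be technical.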

Additional observations from a re-analysis of the deposited data

How the results depend on the processing

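No paired analysis was possible because the labels number the libraries in a single series and share no replicate number between ages. With 2 or 3 libraries per age, depth limits Npas4 and Junb most. Of 384 log2FC values of single members under the alternatives, 327 kept their direction without passing the threshold, 43 changed direction and 14 kept it and passed. Of 134 FDR values of members over all ages, 1 passed. Since no member was called at the outset, no call could be lost.

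Between 6 and 12 months the count of members called was 1 (Egr1) by the exact test, which called 462 of 15966 genes. It was also 1 (Egr1) by DESeq2, which called 240 genes, against 0 by the main test. Calls with a library left out are not listed for this pair, since those fits kept 1 library at an age. Leaving out single libraries moved the log2FC of Arc between -0.74 and 0.0646, Klf10 between -0.11 and 0.25, Fos between -0.78 and 0.58, Egr2 between -0.76 and 0.33, Junb between 0.0989 and 1.36, Nr4a1 between -1.44 and 0.10, Npas4 between -2.23 and 0.84 and Dusp1 between -0.997 and 0.49. Fits with 1 library at an age assume that it varies like the other age. With the shared library at 6 months only, Arc was at 0.11, Egr2 at 0.21 and Dusp1 at 0.22, and with it at 12 months only Klf10 was at -0.0105 and Fos at -0.29.

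Between 6 and 28 months the count was 1 (Arc) without a filter on low counts, where 199 of 20854 genes were called. It was 2 (Arc and Dusp1) without 28 months sample 1, where 137 of 15889 genes were called, and 0 without 28 months sample 2 or sample 3. Left-out libraries moved Klf10 between -0.29 and 0.15, Fos between -0.80 and 0.26, Junb between -0.32 and 0.55 and Npas4 between -1.52 and 0.40. With the shared library as labelled Klf10 was at 0.0499 and Fos at 0.14, by the quasi-likelihood and by the exact test. Between 12 and 28 months the count was 0 to 1 with a library left out, with Arc between -0.94 and -0.14, Junb between -1.30 and -0.0608, Klf10 between -0.37 and 0.10, Fos between -0.85 and 0.61, Egr2 between -0.73 and 0.36, Nr4a1 between -0.76 and 0.76, Npas4 between -1.22 and 1.36 and Dusp1 between -1.47 and 0.15. With the shared library as labelled Fos was at 0.11, Egr2 at 0.0392 and Nr4a1 at 0.0726, and by the exact test at 0.10, 0.0357 and 0.0661. Over all ages, 1 member (Arc) was called without a filter on low counts.

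Over all genes, 191, 33, 19 and 113 were DE in these 4 comparisons. The exact test gave 462, 138 and 128, DESeq2 240, 72, 82 and, by its likelihood ratio test, 208, no filter 112, 199, 139 and 365, and the files as labelled 0, 18, 9 and 1 (with 82, 39 and 50 by the exact test). The shared library at 6 months only gave 19 between 6 and 12 months and 24 over all ages, and at 12 months only 109 and 57. Left-out libraries gave 360 to 883, 0 to 137, 0 to 142 and 54 to 251. The likelihood ratio test and the exact test on the files as labelled were chosen after the data had been seen. The Wald test of any age was not run, since it takes 1 coefficient. The causes of these shifts were not tested.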
